A study of Mus musculus with 21 samples.

Results

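The comparison is between E0771GFP cells that overexpress ZBTB18 and carry an induced TGF-β receptor subunit, TGFBR2, under TGF-β1, and E0771GFP cells that overexpress ZBTB18 alone. It uses 6 of the 21 libraries of the series, 3 in each of the 2 groups, chosen by their labels. A group of 3 more libraries, the receptor cells given vehicle in place of TGF-β1, was used to divide the difference into 2 steps. E0771 is a mouse mammary tumour line, and the version used here carries GFP. All 9 libraries come from cells that overexpress ZBTB18. In the labels, the first group is named for ZBTB18 overexpression alone, with no doxycycline in its own entry. The other 2 groups carry in addition a doxycycline-inducible TGFBR2 and were given doxycycline, labelled as 1 mg/mL, together with either vehicle or TGF-β1 at 2 ng/mL. The medium was RPMI with 10% calf serum, and libraries were made from polyA RNA with a strand-marking kit. The labels name 1 line for each construct, give no length of treatment and do not say that replicates were separate cultures. The p-values therefore measure only the spread between libraries of a group, which may be technical. In the main fit that spread comes from all 21 libraries of the series and not from these 9 alone.

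TGF-β1 binds TGFBR2, which recruits and activates TGFBR1; TGFBR1 then phosphorylates SMAD2 and SMAD3, and these enter the nucleus with SMAD4 to change transcription. Target genes encode matrix proteins, regulators of the matrix and inhibitors that limit the signal, among them SKI and the SKI-like protein encoded by Skil. BMP ligands use related receptors and SMAD1, SMAD5 and SMAD9, and the ID genes are their common targets. ZBTB18 belongs to the BTB zinc finger proteins and represses transcription. Serum can carry TGF-β of its own, mostly in latent form.

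The total comparison is written as TGF-β1 receptor cells minus ZBTB18 cells. On the log2 scale it is the sum of the vehicle step, receptor cells with vehicle minus ZBTB18 cells, and the ligand step, TGF-β1 minus vehicle in receptor cells. The vehicle step holds the receptor construct, doxycycline and the derivation of the line, and these cannot be told apart. The 3 comparisons share libraries, so their values are set side by side and no likeness between them is read as a result. Levels are CPM, the counts of a gene relative to its TMM-scaled library total. A gene was called where its adjusted p (edgeR's quasi-likelihood test, Benjamini-Hochberg over all 15432 genes tested) was under 0.05.

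The 9 libraries held 43182524 to 90518866 counts. Transcripts of the mitochondrial genome made up 1.00 to 1.09% of all counts for ZBTB18 libraries, 0.586 to 0.734% in the vehicle libraries and 0.525 to 0.680% in the TGF-β1 libraries. Markers of blood and immune cells summed to 7.98 to 12.4 CPM in the ZBTB18 libraries, 8.61 to 19.9 in the vehicle libraries and 9.25 to 15.4 in the TGF-β1 libraries, and 11 of the 16 were under 1 CPM in all 9 libraries, Ptprc and Cd3e at or near 0. Of 11 endothelial markers 9, and of 10 lung epithelial markers 10, were under 1 CPM in all 9 libraries. Endothelial markers summed to 23.7 to 27.8 CPM in ZBTB18 libraries, 40.1 to 47.4 with vehicle and 34.7 to 38.9 with TGF-β1. In the total comparison 2 of 7 endothelial markers tested were higher and 0 lower, and of 5 blood cell markers 1 and 1. Over all genes tested, 15.9% were higher and 16.6% lower. The 12 fibroblast markers summed to 655 to 769 CPM in the ZBTB18 libraries, 644 to 811 in the vehicle libraries and 593 to 732 in the TGF-β1 libraries. Of these 6 were under 1 CPM in all 9 libraries, Dcn, Lum, Fap and Thy1 at or near 0; of the 6 tested, 3 were higher in total, among them Gsn (157, 546 and 492 CPM on average in the ZBTB18, vehicle and TGF-β1 groups), and 2 lower, Col3a1 and Acta2, while Pdgfra stood at 130, 110 and 106 CPM. The part of cell identity in the matrix results was not tested. The label breast cancer cells rests here on few epithelial markers. Krt8, a simple epithelial keratin, stood at 203, 296 and 342 CPM and Erbb2 at 34.5, 16.3 and 23.9 CPM, whereas 13 of the 17 mammary lineage markers were under 1 CPM in all 9 libraries, and Krt5, Krt14, Krt18 and Cdh1 were at or near 0.

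Tgfbr2 (ENSMUSG00000032440.13, chr9:116084293-116175360 on the minus strand of mm10), the receptor subunit that binds TGF-β, stood at 1.47, 1.97 and 1.77 CPM in the 3 ZBTB18 libraries. It stood at 572, 566 and 626 CPM with vehicle and at 613, 584 and 616 CPM with TGF-β1, and at 26.6 ± 0.45 CPM (SD, n = 3) in the empty vector cells of the series. The receptor groups did not overlap with the ZBTB18 group but overlapped with each other. The total difference was 8.44 ± 0.12 (log2 fold change ± SE, adjusted p = 8.7e-23, edgeR), of which the vehicle step made up 8.40 and the ligand step 0.04 (adjusted p = 0.93). The counts do not separate transcripts of the construct from those of the gene. Zbtb18 stood at 109, 106 and 124 CPM in the ZBTB18 libraries, 75.4, 86.2 and 87.0 with vehicle, and 90.3, 96.8 and 98.5 with TGF-β1, against 25.1 ± 0.91 in empty vector cells. The overexpression was thus present in every group, lower with vehicle than in the ZBTB18 cells (log2 difference -0.45, adjusted p = 0.0016), and the total difference was -0.25 (adjusted p = 0.070 with all libraries, 0.014 with the 9 libraries alone and 0.0013 with the replicate number as a block as well, edgeR). That block pairs ZBTB18 libraries with TGF-β1 libraries by number alone. Their deviations from the group means correlated weakly (0.112, 0.0148 and 0.121, lowest for replicate 2), which limits every blocked value of a total comparison.

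In the total comparison, 2452 genes were higher (15.9% of genes tested) and 2556 lower (16.6%), and with a fold of at least 2 the counts were 854 higher (5.53%) and 700 lower (4.54%). The vehicle step alone gave 3006 genes higher (19.5%) and 2980 lower (19.3%). The ligand step gave 194 higher (1.26%) and 101 lower (0.654%), and a further test of the difference between the steps called 3260 genes (21.1%). Same-numbered vehicle and TGF-β1 libraries deviated together, and with the replicate number as a block in a fit of the 9 libraries the ligand step called 2202 genes, 1212 higher and 990 lower. Leaving out any 1 of the 6 receptor libraries brought it from 295 to between 71 (without vehicle replicate 2) and 183 (without vehicle replicate 3). Over all settings tried, the ligand step called 71 to 2202 genes and the vehicle step 4432, on log2(TPM + 1), to 8471, with the block. The fit with the block also uses fewer libraries than the fit of all 21; the 9 libraries without the block gave 1361 and 7777.

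The 1554 genes with a fold of at least 2 in the total comparison were put into 5 classes by which step was called. In 1354 of them (87.1%), 743 higher and 611 lower, the vehicle step was called in the direction of the total and the ligand step was not. In 23 (1.48%), 19 higher and 4 lower, the ligand step was called and the vehicle step was not, and in 24 (1.54%), 19 higher and 5 lower, both were called in the same direction. In 13 (0.837%) a step ran against the total, and in 140 (9.01%) neither step passed by itself. A call in 1 step and none in the other does not show that the steps differ; that difference was called for 862 of the 1354, 10 of the 23 and 3 of the 24. The genes of the vehicle class that were higher had a median of 1.85 in the vehicle step and -0.0573 in the ligand step, and those of the ligand class that were higher had 0.115 and 1.88 (log2). Over all genes tested the median was -0.000909 in the vehicle step and -0.00478 in the ligand step. With the replicate block the classes held 1212 (vehicle), 31 (ligand), 114 (both), 137 (opposed) and 80 (neither) genes, and 17 of the 23 genes of the ligand class stayed in it.

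**Figure D1:**
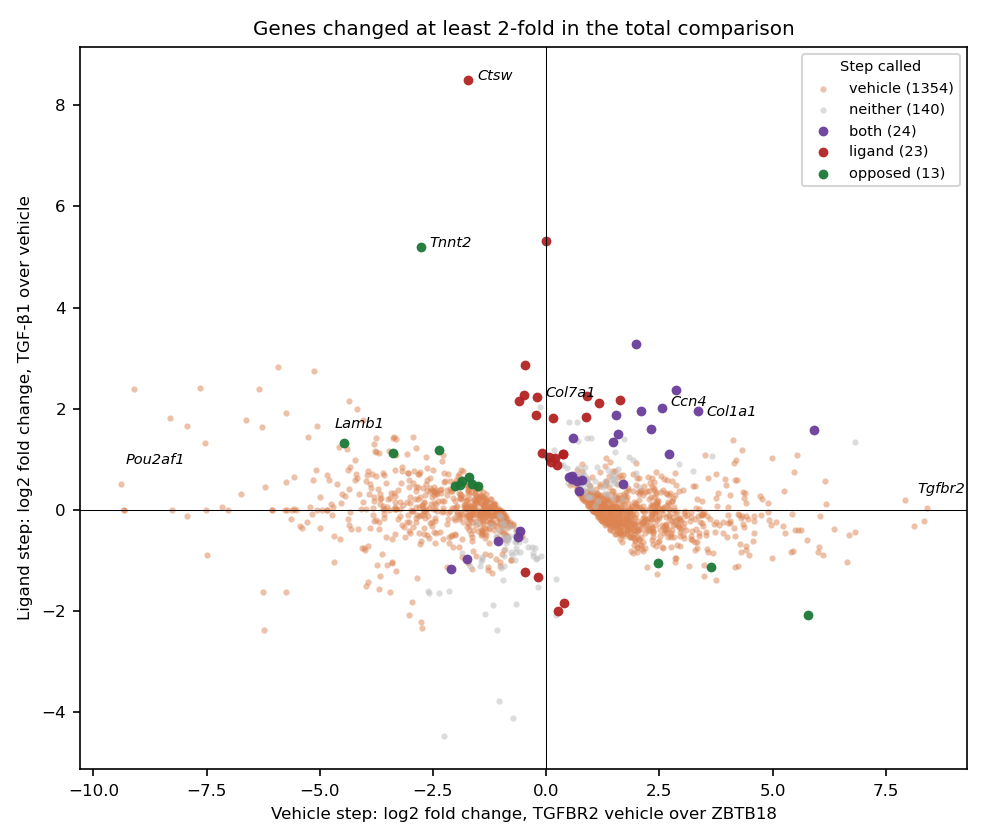
Each point is 1 of the 1554 genes with a fold of at least 2 and an adjusted p under 0.05 in the total comparison. The x axis gives the log2 fold change of the vehicle step and the y axis that of the ligand step; colours give the class, with its number of genes. Most points lie along the x axis near 0 on the y axis, the 23 genes of the ligand class lie near 0 on the x axis with few exceptions, and Tnnt2 moved down in the first step and up in the second.

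Among matrix genes, a small set rose in both steps. Col1a1 (ENSMUSG00000001506.10, chr11:94936224-94953042, mm10), which encodes the α1 chain of type I collagen, stood at 1.68, 0.851 and 0.438 CPM in ZBTB18 cells, 11, 11.1 and 7.91 with vehicle, and 42.3, 43.1 and 31.1 with TGF-β1. The 3 groups did not overlap and rose from one to the next. The total was 5.29 ± 0.36 (adjusted p = 1.7e-09), with 3.34 ± 0.34 in the vehicle step (adjusted p = 3.9e-07) and 1.95 ± 0.30 in the ligand step (adjusted p = 0.0016, edgeR). Ccn2 (ENSMUSG00000019997.11, chr10:24595442-24598683, mm10), the matricellular connective tissue growth factor, stood at 1.00, 0.747 and 0.912 CPM, then at 2.29, 4.64 and 4.52, then at 12.6, 18.3 and 13.2. Its total of 4.04 ± 0.43 was divided almost evenly, 2.08 ± 0.42 and 1.96 ± 0.37, and the test found no difference between the steps (adjusted p = 0.92, edgeR).

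Ccn4, another secreted member of the CCN family, stood at 3.01, 2.7 and 2.57 CPM in ZBTB18 cells, 12.6, 16.6 and 19.5 with vehicle, and 60.1, 69.9 and 65.4 with TGF-β1, again without overlap (total 4.56 ± 0.20, steps 2.55 and 2.01). For genes named as members of a class, the naming rule itself asks that ZBTB18 and TGF-β1 libraries not overlap. Bmp1, the protease that cuts procollagen, rose in 2 smaller steps of 0.57 and 0.68 from 90.3 ± 5.3 through 134 ± 5.3 to 214 ± 7.1 CPM (SD, n = 3). Others of this class were Bhlhe40, a transcription factor of the clock and of hypoxia (total 2.21), Inava (2.81), Tfr2 (3.41), Notch4 (2.02) and Rap1gap2 (5.27). The 5 genes that fell in both steps had smaller ligand steps. Itgb7, an integrin chain of leukocytes, fell by 2.10 and then by 1.17, from 33.1, 39.1 and 44.0 through 6.43, 9.30 and 11.7 to 3.31, 3.5 and 5.22 CPM; Prph, Rgs14, Mapre2 and Dpy19l3 had totals of -2.72, -1.68, -1.15 and -1.

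**Figure D2:**
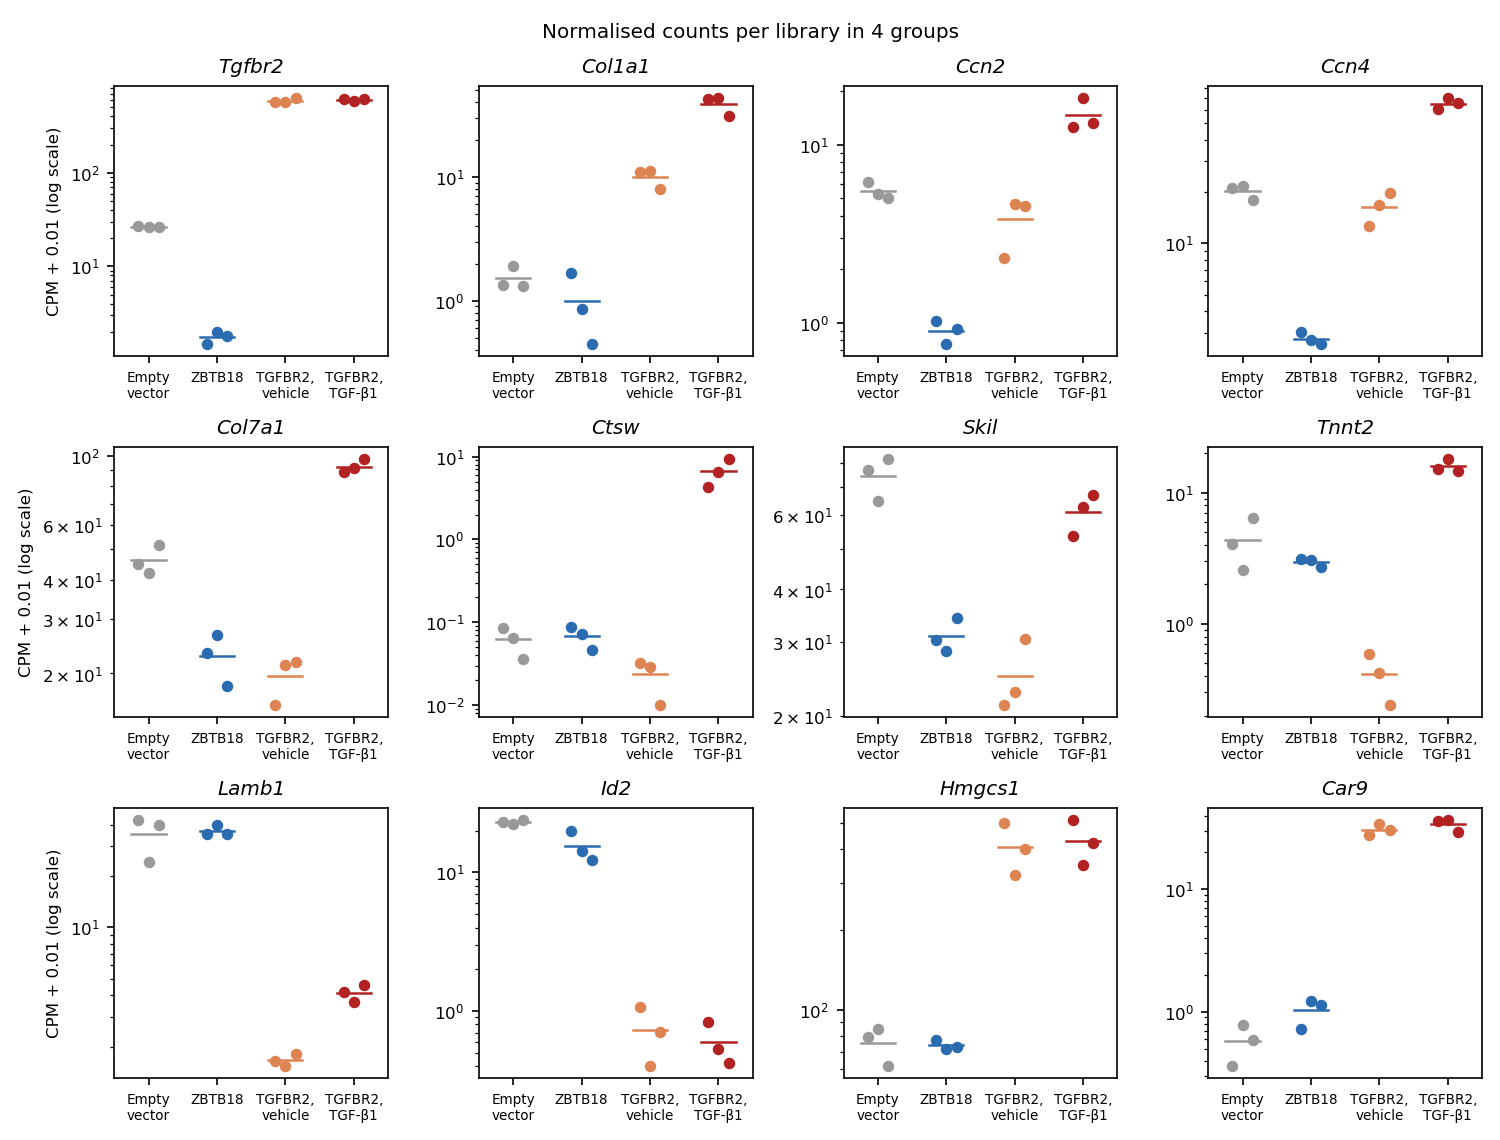
CPM plus 0.01 on a log axis for 12 genes in the empty vector, ZBTB18, TGFBR2 vehicle and TGFBR2 TGF-β1 groups; points are the 3 libraries of a group and the line is their mean. Col1a1, Ccn2 and Ccn4 rise at each step, Col7a1 and Skil are higher with TGF-β1 than in ZBTB18 or vehicle cells, Hmgcs1 and Car9 are as high with vehicle as with TGF-β1, and Tnnt2 and Lamb1 fall with vehicle and lie higher again with TGF-β1.

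Col7a1 was among the genes of the ligand class. It encodes type VII collagen, which anchors basement membranes, and lies at chr9:108953586-108984875 (ENSMUSG00000025650.13, mm10). It stood at 23.3, 26.5 and 18.2 CPM in ZBTB18 cells, 15.8, 21.3 and 21.8 with vehicle, and 88.3, 90.9 and 97.3 with TGF-β1, while empty vector cells had 45.0, 41.9 and 51.7. The first 2 groups overlapped, and the TGF-β1 libraries lay above all others. The ligand step was 2.24 ± 0.19 (adjusted p = 1.5e-06) and the vehicle step -0.21 ± 0.19 (adjusted p = 0.39); the 2 steps differed (adjusted p = 4.2e-05, edgeR).

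The other named genes of the ligand class were of mixed function. Ctsw, a cathepsin of cytotoxic lymphocytes, had 9 reads over the 3 ZBTB18 libraries, 3 over the vehicle libraries and 1164 over the TGF-β1 libraries, where it stood at 4.28, 6.53 and 9.28 CPM. The ratio of TGF-β1 to vehicle reads per scaled library was 402 (95% conditional binomial interval 137 to 1950, for counting error only), and the total was 6.78 ± 0.47 (adjusted p = 1.2e-09, edgeR). The blood cell markers Cd3e and Nkg7 were at 0 in all 3 groups. Acsbg1, an acyl-CoA synthetase, rose in the ligand step by 2.28 ± 0.30, from 2.98, 3.21 and 5.67 to 16.2, 19.8 and 20.8 CPM, against 5, 5.48 and 5.98 in ZBTB18 cells. Bgn, the small matrix proteoglycan biglycan, stood at 2.85 ± 0.50, 3.67 ± 0.70 and 7.95 ± 1.5 CPM in the 3 groups. Ass1, which makes argininosuccinate, stood at 133 ± 31, 144 ± 25 and 279 ± 45 CPM. Its pseudogene Gm5424 has near-identical sequence and was in the same class, so reads shared between them cannot be assigned with certainty. S100a8 passed the ligand step narrowly (0.89 ± 0.23, adjusted p = 0.0497, edgeR).

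The 4 genes of this class that were lower, Exoc3l2, Tmem176a, B230217C12Rik and Gm17749, had means of at most 3.16 CPM; they are named here after their values were seen. A SMAD binding motif was looked for in the ligand class. In RefSeq's promoter table for GRCm38.p6, 10276 of the 15417 gene symbols tested had an entry, and the 250 bases before each start were searched on both strands. The SMAD box CAGACA occurred in 16.0% of all these genes, in 9 of 16 genes of the ligand class that were higher (56.2%), in 2 of 7 of the class called in both steps and higher (28.6%), and in 6 of 21 TGF-β response genes (28.6%). Annotated starts per gene averaged 1.56 in the 16 genes, 1.71 in the 7 and 1.57 in the 21, against 1.28 for all genes. More bases were thus searched per gene in each of these sets. The palindrome GTCTAGAC was in 0.253% of all genes and in 1 of the 16. The promoter of Col7a1 (chr9:108953336-108953585, plus strand) is shown as an example of a ligand class gene with the box; the capitals mark the box, read on the other strand, 182 bases before the start. A match describes letters and is no evidence of binding.
Col7a1: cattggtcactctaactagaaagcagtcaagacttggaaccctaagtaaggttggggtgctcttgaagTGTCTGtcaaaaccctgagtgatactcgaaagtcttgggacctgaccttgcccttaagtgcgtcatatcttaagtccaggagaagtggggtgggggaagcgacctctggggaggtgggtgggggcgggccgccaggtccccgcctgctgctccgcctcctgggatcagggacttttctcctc

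Of 39 TGF-β response genes listed, 31 were tested. In the total comparison 15 were higher and 5 lower (median 0.623, against -0.00252 for all genes tested). In the vehicle step 11 were higher and 7 lower (median -0.0578), and in the ligand step 10 and 0 (median 0.375). Over all genes, 15.9% were higher and 16.6% lower in total, 19.5% and 19.3% in the vehicle step, and 1.26% and 0.654% in the ligand step. With the replicate block the ligand step had 16 higher and 0 lower, in a fit that called 1212 higher and 990 lower of 14394 genes. At an unadjusted p under 0.05 the ligand step had 15 higher and 0 lower, and limma-voom and DESeq2 also called 0 lower. Without vehicle replicate 1 the ligand step had 5 higher.

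Skil, whose product binds SMADs and limits their activity, stood at 30.3, 28.6 and 34.1 CPM in ZBTB18 cells, 21.3, 22.8 and 30.6 with vehicle and 53.6, 62.9 and 66.9 with TGF-β1. The TGF-β1 libraries lay above those of both other groups, though not above the mean of 74.3 CPM in empty vector cells, and the ligand step was 1.30 ± 0.13 (adjusted p = 3.7e-06), after a vehicle step of -0.32 (adjusted p = 0.048, edgeR). Ski moved alike, from 84.0, 82.2 and 75.0 CPM through 59.7, 61.2 and 57.8 to 102, 101 and 87.5, with a total of 0.26 (adjusted p = 0.10 with all libraries, 0.0037 with the 9 libraries and 0.00030 with the block, which pairs ZBTB18 libraries by number alone, edgeR). Ldlrad4, an inhibitor of receptor SMADs, rose in the ligand step by 0.73 (adjusted p = 0.013) with no call in the vehicle step. Smad7, the inhibitory SMAD induced by TGF-β, stood at 19.7, 17.0 and 23.4 CPM on average, and its ligand step of 0.46 did not pass in the fit of all libraries (adjusted p = 0.14) but did in that of the 9 libraries, without the block (0.025) and with it (0.0057, edgeR).

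Tgfbi and Ccn1, both secreted matrix proteins, had totals of 1.21 ± 0.26 and 1.23 ± 0.27, while neither step was called (ligand steps 0.89 and 1.03, adjusted p = 0.10 and 0.064; in the fit of the 9 libraries 0.00062 and 0.014, and with the block 0.00026 and 0.035, edgeR). Tgm2, a transglutaminase, had means of 12.6 CPM in ZBTB18 cells, 54.3 with vehicle and 71.3 with TGF-β1, and its ligand step of 0.40 did not pass. Cdkn1a, a cyclin-dependent kinase inhibitor, was also at its new level with vehicle, at 182, 161 and 209 CPM against 54.8, 58.9 and 83.2, and stood at 220, 169 and 198 with TGF-β1. Lif, a cytokine of the IL-6 family, had 1.70, 2.28 and 3.68 CPM, then 6.76, 8.59 and 9.15, then 11.1, 12.9 and 13.6, with a ligand step of 0.62 that did not pass (adjusted p = 0.53 with all libraries and 0.11 with the 9 libraries, against 0.0037 with the block added to the latter, edgeR). Jun, Snai1 and Il11, further genes of the list, did not pass in any of the 3 comparisons in the fit of all libraries (totals 0.14, 0.13 and -0.35).

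**Figure D3:**
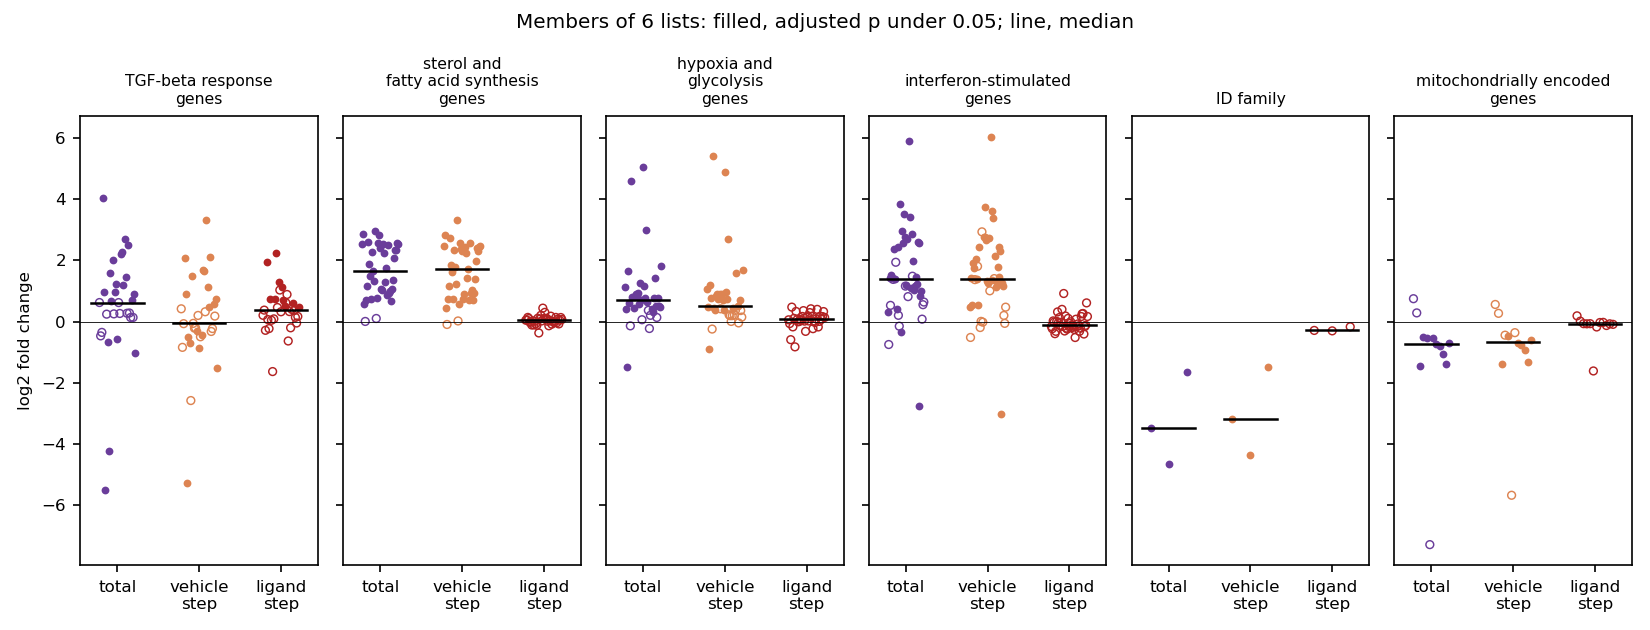
Log2 fold changes of the tested members of 6 lists in the total comparison, the vehicle step and the ligand step; filled points have an adjusted p under 0.05 and the line is the median. TGF-β response genes are spread in both steps with calls only above 0 in the ligand step. In the ligand step, where 1.26% of all genes tested were called higher and 0.654% lower, no member of the other 5 lists has a filled point.

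The list of ligands also held Bmp1, which is a protease and no ligand of the family. Of its 7 genes tested, Bmp1 and Gdf15 were higher in total and Gdf11 was lower. Tgfb1 stood at 93.6, 100 and 102 CPM on average and Tgfb3 at 29.4, 27.9 and 29.9, neither called in any comparison. Gdf11 fell by 1.31 in total, from 17.3, 22.9 and 25.2 CPM to 9.45, 8.02 and 8.85, and Gdf15, a stress-induced member, rose by 1.26 (adjusted p = 0.022). Of 11 receptors tested, 3 were higher and 3 lower in total, beside 15.9% and 16.6% of all genes. In the ligand step, where 1.26% and 0.654% of all genes were called, 0 of the 11 were (edgeR, DESeq2 and limma-voom; 3 higher and 1 lower at an unadjusted p under 0.05, and 4 higher with the block), which at so low a share says nothing particular about receptors. Tgfbr1, the partner that TGFBR2 activates, stood at 25.3, 26.6 and 24.2 CPM, 22.5, 19.3 and 19.9 with vehicle, and 21.5, 18.8 and 22.1 with TGF-β1, a total of -0.29 ± 0.10 (adjusted p = 0.030). Tgfbr3, the coreceptor betaglycan, fell by 1.43 ± 0.15, and the BMP type I receptor Acvr1 by 0.78 ± 0.14. The 3 receptors that were higher were Tgfbr2, which the construct supplies, Acvrl1 (adjusted p = 5.03e-05) and Bmpr2 (adjusted p = 0.0145, edgeR).

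Of the signal transducers, Smad2 stood at 57.3, 52.9 and 53.4 CPM in ZBTB18 cells and 56.9, 54.0 and 57.0 with TGF-β1, and did not pass the test. Smad3 stood at 57.0, 58.1 and 55.6 against 65.8, 62.4 and 68.3 CPM. Its total of 0.20 did not pass with all libraries (adjusted p = 0.089, edgeR). The adjusted p was 0.015 with the 9 libraries and 0.0070 with the block, which pairs ZBTB18 libraries by number alone (edgeR). Smad4 had 0.23 ± 0.07 (adjusted p = 0.017) and the BMP transducer Smad1 -0.61 ± 0.12. Smad6, Smad9 and Tgif1 were called in total as well (adjusted p = 0.00011, 0.0037 and 0.00067, edgeR). Of 16 SMAD transducers and inhibitors, 5 were higher and 2 lower in total, beside 15.9% and 16.6% of all genes. With a fold of at least 2, 1 was higher and 1 lower, beside 5.53% and 4.54% of all genes. In the ligand step 3 were higher and 0 lower, beside 1.26% and 0.654% of all genes. Genes that hold TGF-β latent or process it moved apart from each other. Ltbp1, a latent TGF-β binding protein, fell by 2.23 ± 0.19, from 101, 80.6 and 71.6 CPM to 15.3, 13.4 and 12 with vehicle and 19.6, 17.5 and 17.0 with TGF-β1. Lrrc32 (GARP), which tethers latent TGF-β to the cell surface, rose by 2.76 ± 0.23, from 1.10, 1.83 and 1.81 CPM to 11.8, 12.1 and 12.1 with vehicle. Ltbp3 and Furin, the protease that matures TGF-β, rose in the ligand step by 0.62 and 0.39 (adjusted p = 0.0016 and 0.021) with vehicle steps of -0.02 and 0.08.

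The ID genes, inhibitors of bHLH transcription factors and targets of BMP signalling, fell together in the vehicle step and stayed low. Id2 stood at 19.8, 14.3 and 12.3 CPM, at 1.06, 0.391 and 0.692 with vehicle, and at 0.830, 0.527 and 0.409 with TGF-β1, a total of -4.67 ± 0.33 (adjusted p = 2.5e-09). Id3 stood at 91.7, 50.5 and 52.6 CPM, then 4.55, 7.49 and 9.66, then 4.93, 6.32 and 6.31 (total -3.48 ± 0.36), and Id1 had a total of -1.64 ± 0.16 (adjusted p = 1.6e-07, edgeR). All 3 tested ID genes were called lower in the total comparison and the vehicle step and 0 in the ligand step, also at an unadjusted p, with DESeq2 and with the block. Over all genes, 16.6% were lower in total, 19.3% in the vehicle step and 0.654% in the ligand step. With 3 genes and so low a share, the 0 says nothing particular. In empty vector cells Id2 and Id3 stood at 23 and 85.1 CPM on average.

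Matrix genes were called in both directions in the total comparison, where 15.9% of all genes were higher and 16.6% lower. Of 14 collagens tested 5 were higher and 3 lower, of 15 matrix glycoproteins 6 and 3, of 12 basement membrane genes 4 and 4 (2 and 4 without TGF-β1 replicate 3), of 20 matrix proteases and inhibitors 5 and 6, and of 12 integrins 4 and 4. In the ligand step, however, 6 of the 15 glycoproteins were higher and 0 lower (median 0.886), beside 1.26% and 0.654% of all genes. Among the 6 were Ccn2, Ccn4, Bgn, and Fbln2, which went from 134 to 257 CPM on average (0.94, adjusted p = 0.0016, edgeR). The counts were 3 and 0 without vehicle replicate 1. With the block they were 10 and 0, in a fit that called 1212 higher and 990 lower of 14394 genes. Col3a1, the chain of type III collagen, ran against Col1a1: 294, 310 and 232 CPM fell to 19.7, 18.0 and 15 with vehicle and were 28.2, 28.0 and 22.9 with TGF-β1 (total -3.40 ± 0.24). Vcan, a large proteoglycan, fell likewise by 3.55 ± 0.20, and Col6a3 by 1.94 ± 0.17.

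Of 32 contractile and actin genes, 9 were higher and 6 lower in total, beside 15.9% and 16.6% of all genes. The same shares belong beside the EMT counts below. Acta2, smooth muscle actin and a common marker of myofibroblasts, fell by 1.87 ± 0.29, from 174, 142 and 102 CPM to 49.8, 50.9 and 54.8 with vehicle and 34.9, 38.8 and 40.5 with TGF-β1. Des, encoding desmin, rose by 2.09 ± 0.23. Of 20 EMT and mesenchymal genes, 5 were higher and 6 lower; Prrx1, a mesenchymal homeobox factor, fell from 98.8, 99.2 and 114 CPM to 4.06, 3.66 and 3.79 (-4.75 ± 0.15), whereas Vim, Zeb1, Zeb2, Snai1 and Pdgfra did not pass the test in the total comparison. Without ZBTB18 replicate 1 the EMT counts were 3 and 4. In the ligand step 3 of the 20 EMT genes were higher and 0 lower, beside 1.26% and 0.654% of all genes. Without vehicle replicate 1 that count was 1 higher. Of 15 epithelial genes tested, against 15.9% higher and 16.6% lower over all genes, 2 were higher (4 without ZBTB18 replicate 1), the plakoglobin gene Jup (1.11) and Krt8 (0.75), and 2 lower, among them the tight junction gene Ocln (-1.89).

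**Figure D4:**
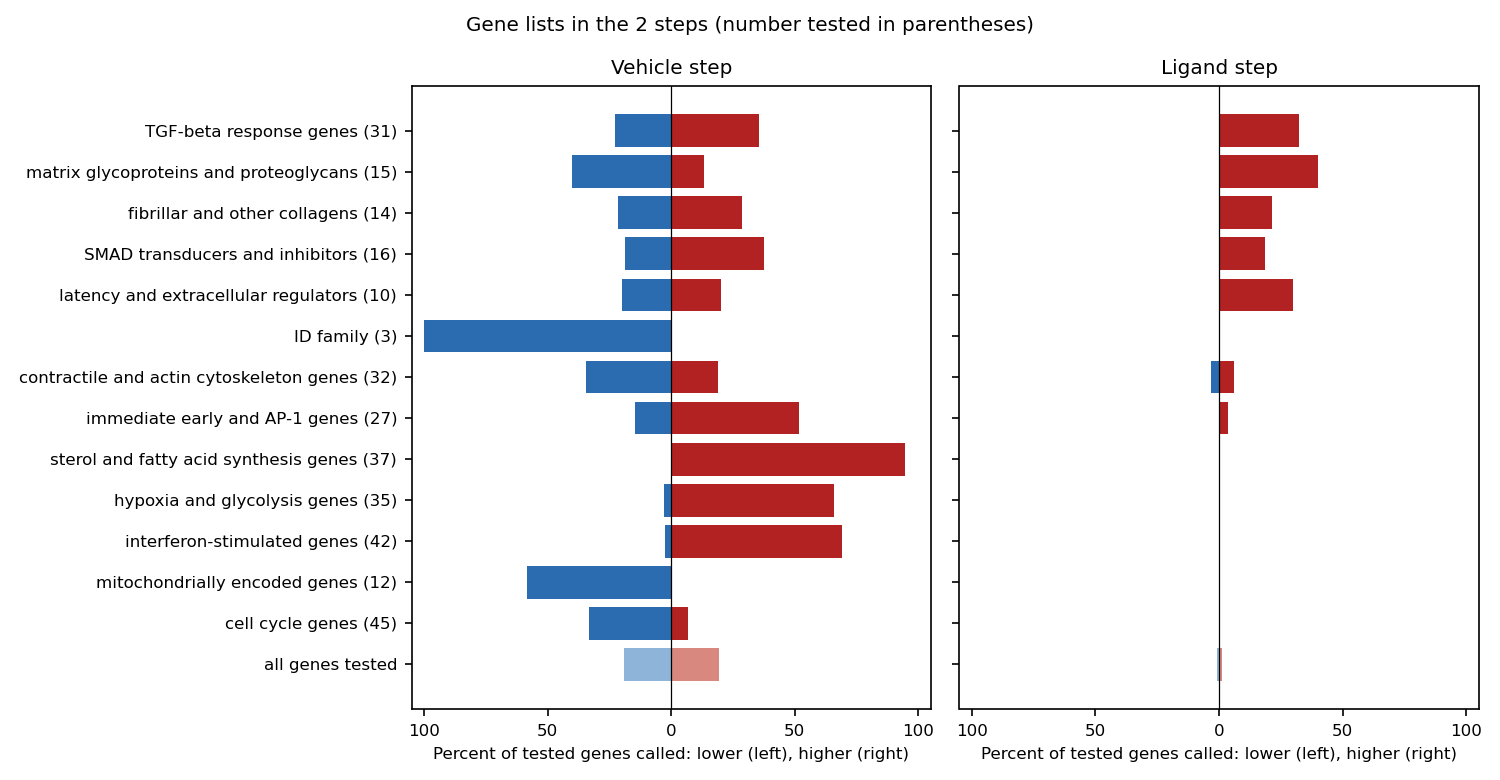
Percent of the tested members of 13 lists, and of all genes tested (last bar), called higher (right, red) or lower (left, blue) in the vehicle step (left panel) and the ligand step (right panel). In the vehicle step each of the 13 lists has a bar beyond that of all genes on the left, the right or both sides, latency genes only just. The longest bars there are those of ID genes on the left and sterol genes on the right. In the ligand step bars appear for TGF-β response, matrix, SMAD and latency genes, and smaller ones for contractile and immediate early genes.

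Sterol and fatty acid synthesis genes rose almost without exception, and they did so in the vehicle step. Cells make cholesterol from acetyl-CoA in a long series of enzyme steps, and SREBP factors switch the pathway on when sterol is low. All 37 listed genes were tested; 35 were higher and 0 lower in both the total comparison (median 1.65) and the vehicle step (median 1.72), while the 2 exceptions were Acaca (0.01) and Fasn (0.10). In the ligand step 0 were called, with a median of 0.0357 (2 higher at an unadjusted p under 0.05, 0 with DESeq2 and limma-voom, 3 higher and 1 lower with the block). Over all genes, 15.9% were higher in total and 19.5% in the vehicle step, but only 1.26% were higher and 0.654% lower in the ligand step. At so low a share the 0 says nothing particular about sterol genes. The steps differed for 31 of the 37. The count of 35 was the same in the total comparison with any 1 of the 9 libraries left out.

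Hmgcs1, the cytosolic synthase, stood at 77.2, 71.4 and 72.9 CPM in ZBTB18 cells, 503, 320 and 402 with vehicle and 514, 348 and 423 with TGF-β1 (total 2.54 ± 0.22, adjusted p = 6.7e-08). Replicate 1 was the highest and replicate 2 the lowest in both receptor groups, which overlapped with each other. The members with the largest totals were Tm7sf2 (2.95), Mvd (2.87) and Acss2 (2.82), and the SREBP genes themselves rose less, Srebf1 by 0.71 and Srebf2 by 0.74.

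The sterol element TCACNCCAC was present within 250 bases before the start in 1.25% of all genes with a promoter entry and in 1 of the 26 sterol genes that have one (3.85%). That gene was Hmgcs1, whose promoter (chr13:119690101-119690350, plus strand, GRCm38.p6) is shown as the example of the list, with the element in capitals 137 bases before the start that RefSeq gives.
Hmgcs1: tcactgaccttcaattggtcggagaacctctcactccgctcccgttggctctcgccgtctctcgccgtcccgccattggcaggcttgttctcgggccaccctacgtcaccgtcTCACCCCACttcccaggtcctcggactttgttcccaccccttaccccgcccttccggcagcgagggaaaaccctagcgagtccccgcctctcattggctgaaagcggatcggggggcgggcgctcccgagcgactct

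Hypoxia and glycolysis genes rose in a similar way. Of 35 tested, 28 were higher and 1 lower in total (median 0.711), and 23 and 1 in the vehicle step (median 0.507). Over all genes, 15.9% were higher in total and 19.5% in the vehicle step. In the ligand step 0 were called, beside 1.26% higher and 0.654% lower over all genes, so the 0 says nothing particular. At an unadjusted p under 0.05 there were 5 higher and 4 lower, and with DESeq2 1 higher. With the block 11 were higher and 5 lower, where 1212 and 990 of 14394 genes were called. Car9, a carbonic anhydrase that is a standard HIF target, stood at 0.715, 1.22 and 1.13 CPM in ZBTB18 cells, 27.6, 34.1 and 30.2 with vehicle, and 36.1, 36.5 and 29.2 with TGF-β1 (total 5.05 ± 0.23, adjusted p = 3.9e-13, edgeR). Empty vector cells had 0.566 CPM. The receptor groups overlapped with each other and lay far above the ZBTB18 libraries.

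Adm, encoding adrenomedullin, rose from a mean of 9.77 CPM to 63.7 with vehicle and 78.1 with TGF-β1 (total 3), and Bnip3 from 62.4 to 199 and 218. Slc2a1, the glucose carrier GLUT1, stood at 182, 182 and 204 CPM, then 365, 351 and 404, then 441, 405 and 424, and Vegfa at 78.4, 75.2 and 62.9, then 137, 127 and 142, then 190, 161 and 169; their ligand steps of 0.18 and 0.36 did not pass with all libraries (adjusted p = 0.39 and 0.25). In the fit of the 9 libraries the adjusted p was 0.094 and 0.015 without the block, and 0.019 and 0.0054 with it (edgeR). The one gene that fell was Eno2 (-1.48), and Gapdh, Pgam1 and Egln3 did not pass the test. The core of the hypoxia element, ACGTG, was in 25.1% of all genes with a promoter entry and in 17 of the 31 of this list that have one (54.8%). The listed genes had 1.52 annotated starts on average against 1.28 for all genes, so more bases were searched in each. The Car9 promoter (chr4:43506776-43507025, plus strand, GRCm38.p6) is shown with its single match in capitals, read on the other strand, 18 bases before the RefSeq start.
Car9: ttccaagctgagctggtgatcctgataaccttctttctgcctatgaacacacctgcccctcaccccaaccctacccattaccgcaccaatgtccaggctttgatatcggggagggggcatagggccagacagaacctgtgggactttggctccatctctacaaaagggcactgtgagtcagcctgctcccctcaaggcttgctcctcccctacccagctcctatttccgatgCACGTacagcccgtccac

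Interferon-stimulated genes were higher in receptor cells, with and without ligand. Of 42 tested, 28 were higher and 2 lower in total (median 1.38), and 29 and 1 in the vehicle step (median 1.40). Over all genes, 15.9% were higher in total and 19.5% in the vehicle step. In the ligand step 0 were called (median -0.124), beside 1.26% higher and 0.654% lower over all genes, so the 0 says nothing particular. There was 1 lower at an unadjusted p under 0.05 and with DESeq2, and 1 higher and 7 lower with the block. The counts moved with the fit: limma-voom called 15 higher in total and 17 in the vehicle step, and without ZBTB18 replicate 1 the total count was 19. Isg15, a ubiquitin-like modifier, stood at 1.95 ± 0.36 CPM in ZBTB18 cells, 8.57 ± 1.8 with vehicle and 7.67 ± 1.2 with TGF-β1 (total 1.97, adjusted p = 0.023, edgeR). Oasl1 stood at 1.02, 1.06 and 1.35 CPM, then 5.37, 6.33 and 5.42, then 7.24, 7.6 and 5.58 (2.57 ± 0.46).

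Gbp2, a guanylate-binding protein, rose from a mean of 0.704 CPM to 9.64 and 8.07, Irf7, the factor that amplifies the interferon response, from 1.2 to 6.55 and 6.46, and Irf1 from 16.4 to 55.2 and 44.2. Ifit2 went the other way, from 9.29, 11.1 and 10.9 CPM to 1.45, 1.25 and 1.11 with vehicle (total -2.75 ± 0.26), and Mx1 and Ifih1 did not pass the test. The core of the interferon response element, GAAANNGAA, was in 7.42% of all genes with a promoter entry and in 14 of the 31 of this list that have one (45.2%). The Isg15 promoter (chr4:156200819-156201068, minus strand, GRCm38.p6) is shown because it holds 3 overlapping matches, in capitals, of which the first begins 78 and the last 66 bases before the start.
Isg15: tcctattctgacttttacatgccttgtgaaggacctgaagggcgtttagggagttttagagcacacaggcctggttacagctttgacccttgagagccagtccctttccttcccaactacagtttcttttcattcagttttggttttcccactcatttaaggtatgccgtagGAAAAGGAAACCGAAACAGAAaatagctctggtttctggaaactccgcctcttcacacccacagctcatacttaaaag

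Immediate early genes were mostly higher: 15 of 27 in total against 2 lower (median 0.54), 14 and 4 in the vehicle step and 1 and 0 in the ligand step. Over all genes the shares higher and lower were 15.9% and 16.6% in total, 19.5% and 19.3% in the vehicle step, and 1.26% and 0.654% in the ligand step. Egr1 stood at 0.541, 0.664 and 0.967 CPM, then 5.09, 5.67 and 4.96, then 5.86, 5.47 and 3.75, and Ier3 rose by 1.80 and Atf3, a stress factor of the ATF family, by 2.05. Nr4a1, an orphan nuclear receptor, was the member called in the ligand step (0.52, adjusted p = 0.044, edgeR), and with any 1 of the 9 libraries left out the count was 0, and Dusp6, a phosphatase of ERK, fell by 1.30. Of 45 cell cycle genes, beside 15.9% higher and 16.6% lower over all genes, 3 were higher (1 without ZBTB18 replicate 2) and 15 lower in total (median -0.141), none by a fold of 2. Of 12 mitochondrially encoded genes 0 were higher and 9 lower (median -0.721), mt-Nd1 by 1.45 ± 0.19. Without TGF-β1 replicate 2 the count lower was 6. That fall goes with the lower mitochondrial share of the receptor libraries given above, and its part in other results was not tested.

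Several genes of the vehicle class were near 0 on 1 side of the comparison. Prdm1 (BLIMP1, a repressor of lymphoid and other lineages) stood at 0.367, 0.166 and 0.128 CPM in ZBTB18 cells, 7.46, 9.24 and 8.39 with vehicle and 5.95, 7.49 and 6.86 with TGF-β1. Its total was 4.92; the scavenger receptor gene Scarf1 rose by 4.63, and Il23a, a subunit of an interleukin, by 4.06. Lcn2, the iron carrier lipocalin 2, varied widely within groups, at 0.464, 1.43 and 1.79 CPM, then 13.5, 35.3 and 114, then 7.5, 19 and 66.3. Replicate 3 was the highest in all 3 groups, and Gpr84 had its highest value in replicate 3 as well, at 9.43 CPM with vehicle and 11.6 with TGF-β1.

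Pou2af1, a B cell coactivator, fell from 33.2, 40.1 and 39.5 CPM to 0.0554, 0.0559 and 0.0461 with vehicle and 0.102, 0.0458 and 0.0682 with TGF-β1 (total -8.89 ± 0.27, adjusted p = 8.4e-16). In empty vector cells it stood at 0.862 CPM, so the ZBTB18 cells were the high group. Sema6d, a transmembrane semaphorin of axon guidance, fell from 35.7, 35.7 and 35.5 CPM to between 0.119 and 0.141 with TGF-β1, against 15.4 in empty vector cells. Adgra2, an adhesion receptor of Wnt signalling, fell by 5.73 and Ikzf2, a zinc finger factor of lymphocytes, by 5.76 ± 0.20, from 14, 13.8 and 14.4 CPM; Ikzf2 stood at 0.883 CPM in empty vector cells.

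In 13 genes the steps ran in opposite directions, and in each the difference between the steps was called. The class asks for a step called against the total, so that call was nearly fixed in advance and adds no support. Tnnt2, cardiac troponin T, stood at 3.09, 3.05 and 2.7 CPM in ZBTB18 cells, 0.577, 0.410 and 0.231 with vehicle and 15.2, 17.9 and 14.5 with TGF-β1. The 3 groups did not overlap, which for the ZBTB18 and TGF-β1 groups is a condition of the naming rule. The vehicle step was -2.78 ± 0.32, the ligand step 5.2 ± 0.33 (adjusted p = 4.3e-09) and the total 2.43 ± 0.27 (edgeR). Lamb1, the laminin β1 chain of basement membranes, stood at 35.1, 39.8 and 35.3 CPM, then 1.64, 1.53 and 1.80, then 4.16, 3.62 and 4.57, so that TGF-β1 cells stayed 3.15 ± 0.21 below ZBTB18 cells.

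Hmga2, an architectural chromatin protein often induced by TGF-β, stood at 305, 346 and 287 CPM, then 106, 108 and 115, then 153, 155 and 150, a rise of 0.48 in the ligand step (adjusted p = 0.040) inside a total of -1.04 ± 0.12. Dbn1, encoding the actin-binding drebrin, moved alike (-2.36, then 1.19), as did Slc44a1, Fam234b, Zfp13 and Zfp41 with ligand steps of 0.48 to 0.66. The opposed class had 4 members that were higher in total. Adhfe1, an alcohol dehydrogenase, went from 3.34, 4.98 and 4.23 CPM to 16.4, 24.3 and 28.9 and back to 8.72, 11.1 and 13.8, and Ptgds and Afap1l2 had the same order of means.

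The share of genes called in the total comparison differed between chromosomes. On chromosome 19, 41 of 537 genes tested were higher and 218 lower (48.2% called, median -0.242), and on chromosome 15, 78 of 609 were higher and 189 lower (43.8%, median -0.173). On the other chromosomes 24.8 to 35.2% were called. The vehicle step held the same shift, with medians of -0.214 and -0.159, while in the ligand step 4 were higher and 4 lower on chromosome 19 and 8 and 5 on chromosome 15. DNA content was not measured in these libraries, and its part in this shift was not tested.

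**Figure D5:**
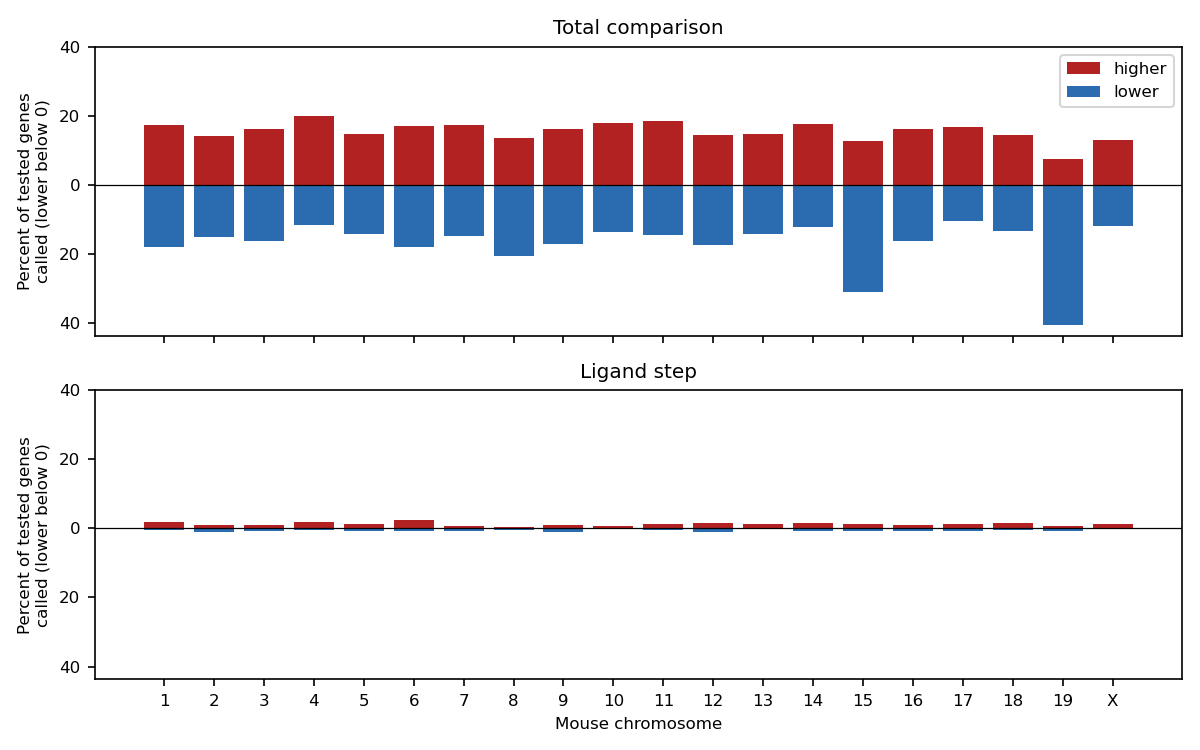
Percent of the genes tested on each mouse chromosome that were called higher (red, above 0) or lower (blue, below 0) in the total comparison (top) and in the ligand step (bottom). Chromosomes 15 and 19 have the longest bars below 0 in the top panel, with 189 of 609 and 218 of 537 genes lower, and no such bar in the bottom panel.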

How the data were processed

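Each library was made from polyA-enriched RNA of a labelled sample. RSEM, STAR 2.7.1a, Trim Galore and GATK 4.1.2.0 are listed with build mm10, per the submitters' processing notes; the strand setting of the counting is not given in the sources used here, so overlapping and antisense genes, and close copies whose reads RSEM shares out, are uncertain. The authors deposited RSEM expected counts (1.28% of values not whole), which were rounded, and TPM values, which were used only in alternatives as log2(TPM + 1) and log2(TPM + 0.1). The 92 spike-in entries held 0 reads and were left out, and 99.29% of IDs were found in GENCODE vM21.

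Of 55573 genes, 15432 passed edgeR's expression filter. All 21 libraries in 7 groups, with 14 residual degrees of freedom, entered edgeR's quasi-likelihood test (edgeR 4.0.16, R 4.3.3, TMM scaling) without a replicate block, with Benjamini-Hochberg adjustment over all genes and a threshold of 0.05. The spread was thus shared with groups not compared here. The median SD on the log2 CPM scale was 0.162, 0.155 and 0.157 in the groups labelled parental, M11 and M12. It was 0.0929, 0.0925 and 0.0795 in the ZBTB18, vehicle and TGF-β1 groups. Parental replicate 1 held 14% of its counts in Gm42418, against 0.0918 and 0.0595% in parental replicates 2 and 3. Alternatives used DESeq2 1.42.0, limma 3.58.1, other filters and fold limits, the replicate block, and each replicate left out. The script was tested on simulated data. Same-numbered vehicle and TGF-β1 libraries correlated in their deviations from the group means (0.302, 0.141 and 0.351), all over 0.1, so the numbers were taken to pair these 2 groups, as a check of the data and not from a label. Replicates differed by more than sampling noise (chi-square per degree of freedom 8.785 to 28.84). Intervals cover counting error only, since there were no molecular identifiers.

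Genes were named by a rule: Zbtb18, Tgfbr2, Tgfbr1, Col1a1 and Ccn2; the 10 highest and 10 lowest log2 fold changes of the total comparison, and the 8 largest per class and direction, among called genes that changed 2-fold or more, with 5 CPM or more on the higher side, groups that do not overlap, and an official symbol; up to 5 of each list by adjusted p; and all tested ligands, receptors, SMADs and ID genes. Other genes named were chosen after their values were seen. The comparison, members and lists were chosen with earlier results of these data known. Coordinates are from mm10, and promoter sequences from RefSeq on GRCm38.p6, whose starts can differ from those of GENCODE. Some results are not reported here.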

Additional observations from a re-analysis of the deposited data

How the results depend on the processing

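With the replicate block in a fit of the 9 libraries, which pairs same-numbered libraries, the total comparison called 7742 genes, the ligand step 2202 and the difference between the steps 6367; the classes both, opposed and neither then held 114, 137 and 80 genes. For the ZBTB18 libraries the same-number correlations were 0.161, -0.0363 and 0.192 with vehicle, and 0.112, 0.0148 and 0.121 with TGF-β1. They were over 0.1 for replicates 1 and 3 but not for replicate 2, so the numbers were not taken to pair this group. A fit of only the 9 libraries without the block called 1361 genes in the ligand step and 5426 for the difference, with classes of 66 (both), 60 (opposed) and 85 (neither). In the ligand step DESeq2 called 594, no filter on low counts 633, log2(TPM + 1) 112 and log2(TPM + 0.1) 81. The difference between the steps was called for 2051 and 2022 genes on the 2 TPM scales. The class called in both steps held 37 genes with DESeq2, 62 without a filter, and 12 and 10 on the 2 TPM scales; the opposed class held 29, 69, 5 and 2, and 21 with limma-voom. On log2(TPM + 1) the vehicle, ligand and neither classes held 540, 10 and 14, and a filter at 1 CPM left 51 in the neither class. With no fold limit the vehicle, ligand, opposed and neither classes held 4057, 67, 44 and 811 genes, and at a fold of 4 they held 609, 8, 5 and 44, with 15 in both. The cause of these differences was not tested, apart from the smaller or larger set of genes that the fold limits and filters admit by construction.

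With each replicate left out, the total comparison called 3912 to 4960 genes, the vehicle step 4810 to 5828, the ligand step 71 to 246 and the difference 1938 to 2882 (71 and 1938 without vehicle replicate 2). The classes held 1271 to 1374 (vehicle), 10 to 21 (ligand), 10 to 22 (both), 5 to 13 (opposed) and 108 to 251 (neither); the ligand class was lowest without vehicle replicate 1, both and opposed without vehicle replicate 2, and neither was highest without vehicle replicate 3. Without the parental replicate 1, a setting chosen after seeing the data, these counts were 5251, 6238, 336 and 3512, and the ligand, both and opposed classes held 25, 25 and 18 genes. Over the settings, 3780 of 3871 values for 194 genes named and called in the total comparison kept their direction and side of the threshold. Of the others, 91 lost the call and 0 reversed. In the ligand step, 633 of 760 values for 38 genes kept both, 127 lost the call and 0 reversed. Only genes called in the main fit were counted, and many were named for their fold or p in it. The settings reuse these libraries, so most of this was fixed in advance and adds no support. Of all 295 ligand step calls, 96, 71 and 172 were kept without vehicle replicates 1, 2 and 3. With 3 libraries per group and 1 line per construct, small ligand steps and low genes are the least certain.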
